A study of Drosophila melanogaster with 18 samples.

Results

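The GATC sites of chromosome 4 were taken as all rows of the deposited count table whose chromosome was 4, which gave 3594 of 400733 sites. The study profiled RNA polymerase II by targeted DamID, in which a fusion of bacterial Dam methylase and a polymerase II subunit (Dam-PolII) methylates adenine within GATC next to where it sits, and the methylated fragments are cut out, amplified and sequenced. The fusion was expressed through UAS in Drosophila melanogaster embryos at stages 10 to 13, either under bap-GAL4, which drives in the visceral mesoderm, or under twi2xPE-GAL4, which drives in the mesoderm at large. For each of these 2 drivers, 3 libraries were labelled as Dam-PolII alone, 3 as Dam-PolII with UAS-Alk.DN and 3 as Dam-PolII with UAS-Jeb, giving 18 libraries in 6 groups of 3. Alk is a receptor tyrosine kinase of the visceral mesoderm and Jeb is its secreted ligand. Alk.DN is a dominant negative form made of the extracellular part of Alk, and UAS-Jeb overexpresses the ligand. By the labels every group held Dam-PolII and a GAL4 driver. DNA came from pooled whole embryos, so that only cells with driver activity could be marked, and a mark made early in those cells could still be read later. Fewer marked cells of a type and less signal per cell cannot be told apart in such bulk libraries. No library with untethered Dam was used here, so that polymerase contact and general access of Dam to chromatin cannot be told apart either.

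Chromosome 4, the dot chromosome, is the smallest chromosome of the fly. Most of its length carries marks of heterochromatin, including the protein HP1a and methylated histone H3, and it is covered by a binding protein of its own, Pof. It is also dense in transposable elements, yet its genes are transcribed, many of them in development. It carries the genes for the Hedgehog pathway effector Ci, the Wnt pathway factor Pan, the Pax proteins Ey, Toy and Sv, the TGF-beta ligands Myo, Mav and Actbeta, and the large muscle protein Bent. The annotation (Ensembl release 115, genome build BDGP6.54, which is Release 6) placed 114 genes on chromosome 4, of which 105 contained at least 1 GATC site. These were 80 protein-coding genes, 18 non-coding RNA genes and 7 pseudogenes. All 3594 positions matched the GATC positions of the Release 6 chromosome. The level of a site was its count scaled to a library total of 1000000 (CPM), and the level of a gene was the CPM summed over the sites inside it. DamID reads carry no strand, so where genes overlap they share sites and their signals cannot be separated.

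The following sequences of the Release 6 reference, each read from the forward strand, surround the sites on which the results below turn, with the GATC in capitals. The first line lies 26 bp from a start of bt in intergenic sequence, and those for pan and unc-13 lie in exons, 24 and 9 bp from a start. They are shown because they were among the strongest sites of the chromosome. The line for PlexB lies in an exon of PlexB and inside the antisense gene asRNA:CR45124, near a start at which the drivers differed. Those for CG32006 (an intron) and Mitf (an exon) were called higher with Alk.DN under both drivers. The last lies in an exon of lncRNA:sphinx and within an intron of fuss. It was higher in the libraries labelled Jeb than in those labelled Dam-PolII under both drivers.
bt start, chr4:724361-724390: catatgcttcgctGATCaagagcacctatt
pan start, chr4:69664-69693: ctggcagagcagcGATCaaagctgcgttcg
unc-13 start, chr4:904004-904033: ccattccaataatGATCctgataaacagta
PlexB, chr4:43166-43269: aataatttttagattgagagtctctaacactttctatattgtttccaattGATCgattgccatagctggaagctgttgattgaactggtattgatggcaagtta
CG32006, chr4:151141-151244: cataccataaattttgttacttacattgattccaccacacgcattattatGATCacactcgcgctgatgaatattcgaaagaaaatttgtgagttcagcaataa
Mitf, chr4:1220279-1220382: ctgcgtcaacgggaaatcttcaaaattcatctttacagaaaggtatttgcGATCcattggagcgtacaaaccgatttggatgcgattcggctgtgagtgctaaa
lncRNA:sphinx, chr4:976952-977055: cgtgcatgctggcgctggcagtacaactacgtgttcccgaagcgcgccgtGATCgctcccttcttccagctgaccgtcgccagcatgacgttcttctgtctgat
Of 20 stretches of 30 bases within 300 bp of the sphinx site, 6 were found again elsewhere in the genome, so that reads there may be shared with another copy. None of 20 was found again at the other 6 sites.

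The libraries held 1624349 to 14095376 counts, and 3 counts, the limit that a count of 0 allows, corresponded to 0.213 to 1.85 CPM. Such limits cover counting error only. Between 42.1% and 85.9% of chromosome 4 sites had a count in a library, and 161 had none in any. The labels are checked here on jeb, and the labels of UAS-Alk.DN are taken as deposited. Exons of jeb, which UAS-Jeb should raise, stood at 389, 374 and 474 CPM in the 3 libraries that carry the label bap Dam-PolII, at 8.92, 260.4 and 257 in bap Jeb and at 6.98, 361 and 628 in twi Jeb, against 11.1 to 28.2 in the other 9. The bap Dam-PolII label thus goes against its jeb level, and so do replicate 1 of bap Jeb and replicate 1 of twi Jeb. Groups are therefore written as labelled throughout, and what the bap Dam-PolII libraries expressed beside Dam-PolII cannot be told from their label, which touches every comparison with them. These 2 replicate 1 libraries also stood apart in fragment use. Sites with no flanking fragment that has a purine at both ends held 5.50% and 5.49% of their chromosome 4 counts, against 34.3% to 47.6% in the other 16. Their site levels on chromosome 4 correlated with the other 16 at r of 0.51 to 0.70 and with each other at 0.84, over the 3433 sites with a count in any library. The visceral mesoderm markers were bap, bin, Fas3, Hand and org-1. They lay at 2.92 to 41.7 CPM per site in bap Dam-PolII, compared with 3.33 to 9.76 in bap Alk.DN. For the twi groups these ranges were 3.35 to 15.6 and 2.07 to 3.80. Not every marker fell with Alk.DN. Under the bap driver the gene bap went from 2.92 to 3.33, with overlapping libraries. Fas3 rose from 3.35 to 3.80 under twi. The remaining visceral means were lower with Alk.DN. Of the mesoderm markers, twi, tin and htl had higher means with Alk.DN under bap (htl 7.55 and 13.0), and Mef2 a lower one. Under twi the means of all these mesoderm markers were lower. The genes srp and GATAe, which were listed beforehand as markers of gut endoderm, had 3.45 and 0.799 CPM per site in bap Dam-PolII and 27.5 and 6.14 in twi Dam-PolII. Whether their signal came from endoderm was not tested. The neuronal markers elav, Syt1, nSyb and brp had group medians of 0.635 to 1.78 CPM per site, with brp at 0.141 to 0.516 and elav at 4.89 to 10.7. The part of these differences in the results on chromosome 4 was not tested. The study describes the replicates as biological, and p-values measure the spread between these libraries.

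Chromosome 4 took a larger share of the counts in the libraries labelled Alk.DN than in those labelled Dam-PolII under both drivers. The share was 1.05, 0.886 and 0.847% in the bap Dam-PolII libraries and, higher, 1.19, 1.13 and 1.17% in bap Alk.DN. It was 0.978, 0.953 and 0.911% in twi Dam-PolII, compared with 1.32, 1.26 and 1.31% in twi Alk.DN, so that the Alk.DN libraries lay above the Dam-PolII libraries for each driver, with the jeb level of the bap Dam-PolII libraries going against their label. The Jeb libraries spread more widely, with 1.67, 1.15 and 0.959% under bap and 1.64, 1.11 and 0.843% under twi, and the highest value of each was that of the replicate 1 library that stood apart. Per site, chromosome 4 averaged 2.58 ± 0.294 CPM in bap Dam-PolII and 2.64 ± 0.0936 in twi Dam-PolII (mean ± SD, n = 3), beside 2.59 to 2.66 over the groups for 2L, 2R, 3L, 3R and X together. With Alk.DN it averaged 3.23 ± 0.0832 and 3.61 ± 0.0888 CPM. The X chromosome averaged 1.98 to 2.17 CPM per site and the Y chromosome, largely silent heterochromatin, 0.0815 to 0.220. A rise with Alk.DN was not limited to chromosome 4. In the gene fits given below, the median log2 fold change under bap was 0.28 on chromosome 4, 1.78 on Y (21 genes) and 2.16 on unplaced sequence (30 genes). Under twi these medians were 0.43, 0.47 (17 genes) and 1.44 (30 genes).

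**Figure D1:**
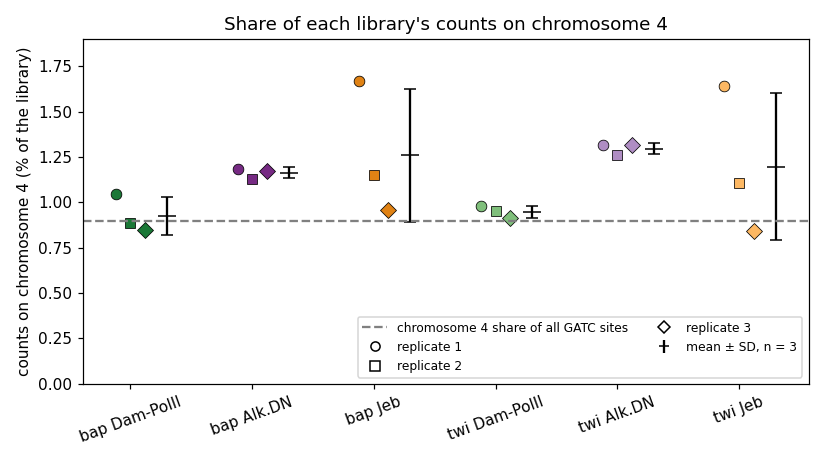
Share of each library's counts on chromosome 4, in percent, for the 18 libraries (points, shaped by replicate) with the mean ± SD of each group of 3 and, dashed, the chromosome's share of all GATC sites. The Alk.DN libraries lie above the Dam-PolII libraries for both drivers, and the highest Jeb library of each driver is replicate 1, at 1.67% and 1.64%.

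On chromosome 4, signal differed little between genes and intergenic sequence and much with distance from a transcription start. In genes lay 2849 sites (1351 in an exon, 1498 in introns only), and 745 were intergenic. Genic sites averaged 2.59 ± 0.305 CPM in bap Dam-PolII and intergenic sites 2.53 ± 0.252. In bap Alk.DN the averages were 3.23 ± 0.0820 and 3.25 ± 0.110. Under twi they were 2.61 ± 0.0949 and 2.73 ± 0.0903 with Dam-PolII alone, and 3.57 ± 0.107 and 3.76 ± 0.0238 with Alk.DN. As mean log2(CPM + 1), genic sites exceeded intergenic ones by 0.103 ± 0.00552 in bap Dam-PolII and 0.0591 ± 0.00437 in twi Dam-PolII (SD, n = 3), and by 0.0596 ± 0.0329 and −0.00671 ± 0.0233 with Alk.DN, the last of which did not differ from 0 by more than its SD. On the 5 major arms the same difference was 0.237, 0.189, 0.107 and 0.0870. For bap Jeb and twi Jeb it was 0.0539 ± 0.0452 and 0.0290 ± 0.0274. With a pseudocount of 0.1 CPM it grew to 0.326 and 0.143 in the bap and twi Dam-PolII groups, and over sites counted in every library alone it became 0.0573 and −0.0302, so its size and for twi its sign hang on the weakest sites.

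Exons and introns ran in opposite order on chromosome 4 and on the major arms. On chromosome 4 the exonic sites had the higher mean log2(CPM + 1) in each of the 6 groups, for example 0.910 against 0.709 for introns in bap Dam-PolII and 1.48 against 1.22 in twi Alk.DN. On the major arms the intronic sites had the higher mean in each group, for example 0.810 against 0.606 in bap Dam-PolII. The order of exons and introns was not tested.

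Only 162 sites (4.51%, against 7.81% on 2L, 2R, 3L, 3R and X) lay within 250 bp of an annotated start, but they carried a large part of the signal. Their mean was 23.2 ± 2.78 CPM in bap Dam-PolII, compared with 17.0 ± 0.546 in bap Alk.DN, and 22.1 ± 1.39 in twi Dam-PolII, compared with 14.8 ± 0.512 in twi Alk.DN. In Jeb it was 40.8 ± 18.7 and 35.3 ± 19.4 CPM, with replicate 1 highest in each. The 162 sites held 40.6% of the chromosome's counts in bap Dam-PolII, compared with 23.7% in bap Alk.DN. For the twi groups these shares were 37.8% and 18.5%. On the major arms such sites held 27.3%, 21.1%, 28.6% and 21.2%.

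The 1433 sites beyond 5000 bp from any start moved the other way. Their mean was 1.01, 0.909 and 0.845 CPM in the bap Dam-PolII libraries, compared with 2.22, 2.14 and 2.21 in bap Alk.DN. Under twi it was 1.19, 1.17 and 1.18 and 2.73, 2.65 and 2.74 CPM. The Alk.DN libraries lay above every Dam-PolII library in both drivers, and the larger share of counts on the chromosome with Alk.DN came with more signal far from starts. Within 250 bp of a start the mean CPM was lower, while the mean log2(CPM + 1) was about the same in each group. Strong sites weigh most on the mean CPM. Among them, the site 24 bp from a pan start went from 772 to 295 CPM under bap and from 610 to 306 under twi. Intergenic sites far from starts rose as well. The 189 within 1000 bp of a start averaged 7.83 CPM in bap Dam-PolII, compared with 7.47 in bap Alk.DN, while the other 556 averaged 0.727 ± 0.0821 and 1.82 ± 0.109. For twi these were 8.09 and 7.17 CPM close to starts, and 0.904 ± 0.0368 and 2.60 ± 0.0571 further away. The means close to starts lean on the intergenic site 26 bp from a bt start. That site went from 404 to 359 CPM under bap and from 412 to 179 under twi, so no general fall of intergenic sites close to starts is shown.

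**Figure D2:**
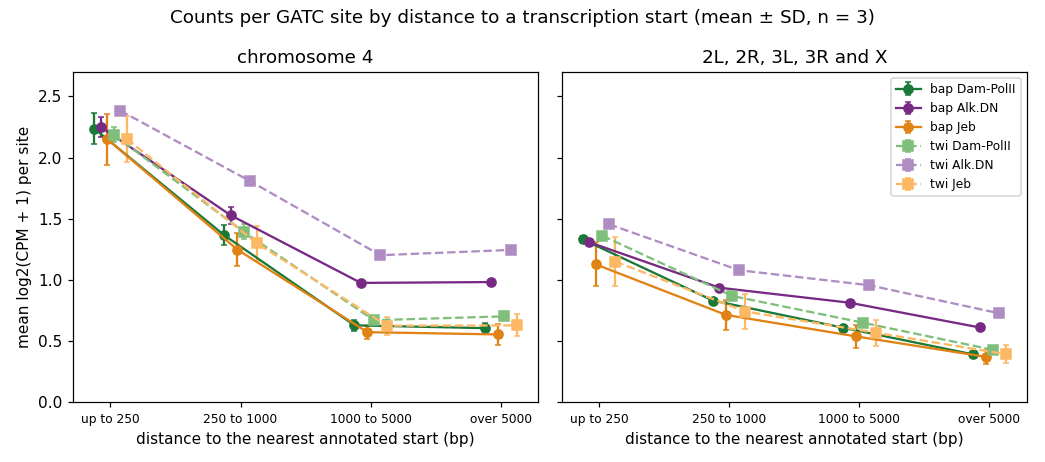
Mean log2(CPM + 1) per site in 4 classes of distance to the nearest annotated start, for chromosome 4 (left) and the major arms (right), as group means ± SD (n = 3). On chromosome 4, sites within 250 bp sit at about the same mean in each group (2.15 to 2.38), whereas sites beyond 5000 bp sit higher in the Alk.DN libraries of both drivers.

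A few sites carried much of the chromosome. The 10 strongest sites held 31.0 ± 0.390% of its counts in bap Dam-PolII, compared with 16.2 ± 0.391% in bap Alk.DN, and 28.4 ± 0.880% in twi Dam-PolII, compared with 11.5 ± 0.304% in twi Alk.DN. The site 24 bp from a pan start had 944, 721 and 651 CPM in bap Dam-PolII, compared with 284, 278 and 324 in bap Alk.DN. Under twi it had 665, 608 and 557 CPM with Dam-PolII alone, compared with 335, 283 and 299.6 in twi Alk.DN. The Alk.DN libraries were lower throughout, with a log2 fold change of −1.77 ± 0.15 (SE; adjusted p = 4.5e-06) under bap and −1.52 ± 0.11 (SE; adjusted p = 1.1e-05) under twi by edgeR's quasi-likelihood test with Benjamini-Hochberg adjustment over all sites. The site 26 bp from the bt start had 462, 394 and 379.7 CPM in twi Dam-PolII, compared with 190.5, 171 and 176 in twi Alk.DN (log2 fold change −1.72 ± 0.12 SE, adjusted p = 5.5e-06). In bap Dam-PolII it had 450.2, 367 and 394 CPM and in bap Alk.DN 402, 349 and 328, groups that overlap (log2 fold change −0.55 ± 0.14 SE, adjusted p = 0.0078). In Jeb it spread over 2684, 918 and 436 CPM under bap and 1927, 607 and 349.7 under twi. The site 9 bp from an unc-13 start behaved like it in Jeb, with 1074, 76.7 and 106 CPM in bap Jeb against 39.1, 88.6 and 113 in bap Dam-PolII. Under twi it had 1349, 100.4 and 163 CPM with Jeb and 53.7, 61.5 and 63.9 with Dam-PolII alone. Both of these high Jeb values belong to the replicate 1 libraries that stood apart.

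Transposable elements held 1200 of the 3594 sites (33.4%, against 6.46% on 2L, 2R, 3L, 3R and X), and they carried less signal than the rest. Their mean log2(CPM + 1) in bap Dam-PolII was 0.548, against 0.900 outside elements. They held 13.5% of the chromosome's counts in bap Dam-PolII, compared with 16.6% in bap Alk.DN. Under twi they held 12.6% in twi Dam-PolII, compared with 19.9% in twi Alk.DN. INE-1, an old and inactive element that is abundant on the dot chromosome, held 556 of these sites, with 0.907, 0.826 and 0.787 CPM per site in bap Dam-PolII, compared with 1.48, 1.42 and 1.55 in bap Alk.DN. INE-1 under twi had 0.912, 0.924 and 0.908 CPM per site with Dam-PolII alone and 1.70, 1.71 and 1.78 with Alk.DN. The libraries labelled Alk.DN lay above those labelled Dam-PolII in both drivers. HeT-A (82 sites) and TART-A (72 sites) are elements that form fly telomeres. HeT-A had 0.688, 0.649 and 0.654 CPM per site in bap Dam-PolII, compared with 1.96, 2.98 and 2.35 in bap Alk.DN. TART-A had 0.0607, 0.0505 and 0.0603 CPM per site in bap Dam-PolII, compared with 0.357, 0.478 and 0.637 in bap Alk.DN. Both were thus higher with Alk.DN, at low levels. Under twi, HeT-A had 1.11, 1.10 and 1.42 CPM per site with Dam-PolII alone and 4.37, 4.87 and 4.82 with Alk.DN. The DNA transposon 1360 (131 sites) differed in its order between drivers, with 4.09, 3.09 and 2.80 CPM per site in bap Dam-PolII, compared with 2.12, 2.14 and 2.06 in bap Alk.DN. Under twi it had 1.62, 1.74 and 2.16 CPM per site with Dam-PolII alone and, higher, 3.25, 2.86 and 3.25 with Alk.DN. Reads from elements with many copies may be shared among copies, and these families were given no test.

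Under bap-GAL4, 46 of the 98 chromosome 4 genes tested (46.9%) had another level in bap Alk.DN than in the group that carries the bap Dam-PolII label, at an adjusted p under 0.01, with 27 higher and 19 lower in Alk.DN. The jeb level of these Dam-PolII libraries goes against their label, and its part in the differences was not tested. Over all 12627 genes tested 36.3% were called, 16.5% higher and 19.8% lower. The median log2 fold change was 0.28 over the chromosome 4 genes and 0.13 over all genes. On chromosome 4 the shares were 27.6% higher and 19.4% lower, and the difference from the genome was not tested. All fold changes are from edgeR's quasi-likelihood test with TMM scaling, and adjusted p-values are Benjamini-Hochberg values over all genes of the genome. The CPM values printed beside them are scaled to total counts, so that a fold change with TMM lies below the ratio of the CPM values in both Alk.DN comparisons. When libraries were scaled to their total counts instead, 55 genes were called, 47 higher and 8 lower, where 42.6% of all genes were called, 32.6% higher and 9.94% lower, with a median of 0.74. All 27 higher genes kept their call, and 8 of the 19 lower genes did, namely PlexB, RpS3A, apolpp, asRNA:CR45124, ci, lncRNA:CR44440, mav and pan. When each library was left out in turn, 29 of the 46 genes, 18 higher and 11 lower, kept call and direction each time. The call was lost at least once for the higher genes CG1909, Cals, Ephrin, NfI, Sox102F, Tdg, asRNA:CR45126, lgs and mGluR and for the lower genes Arf4, CG33521, CG33941, CR43361, Pur-alpha, Zyx, gw and unc-13.

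Of the genes lower with Alk.DN under bap, apolpp (FBgn0087002, chr4:1060969-1077273), which encodes the precursor of the lipid carrier protein of the haemolymph, had the smallest adjusted p. It had 304, 239 and 241 CPM in the bap Dam-PolII libraries, compared with 92.6, 104 and 91.0 in bap Alk.DN, a log2 fold change of −1.98 ± 0.14 (SE; adjusted p = 1.7e-08). The groups were far apart, as the 6 lower and 6 higher genes named for each driver were picked for having no overlap between groups. Their separation is thus no further result. The Wnt pathway factor pan (FBgn0085432, chr4:69326-114270) fell from 1970.5, 1549 and 1439.9 CPM to 927, 925 and 959.7, a log2 fold change of −1.35 ± 0.10 (SE; adjusted p = 3.6e-08). Its libraries did not overlap either. PlexB (FBgn0025740, chr4:32478-43778), a receptor for semaphorins in axon guidance, had 254, 227 and 193 CPM in bap Dam-PolII, compared with 51.2, 62.2 and 84.3 in bap Alk.DN (log2 fold change −2.30 ± 0.19 SE, adjusted p = 6e-08). Its antisense neighbour asRNA:CR45124 holds a single site, the PlexB site printed above, which went from 78.8, 73.1 and 54.9 to 1.70, 3.98 and 8.03 CPM (for the gene, log2 fold change −4.43 ± 0.39 SE, adjusted p = 1.5e-07). The Hedgehog effector ci (FBgn0004859, chr4:47710-57041) had 355, 254 and 259 CPM and 153, 189 and 144 with Alk.DN (log2 fold change −1.37 ± 0.16 SE, adjusted p = 2.8e-06), again without overlap. The TGF-beta ligand mav fell from 240.3, 188 and 175 to 99.4, 127 and 104 CPM (log2 fold change −1.39 ± 0.16 SE, adjusted p = 3.2e-06).

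Of the genes higher with Alk.DN under bap, CG33978 (FBgn0053978, chr4:157575-175639) had the smallest adjusted p, with 47.5, 44.7 and 49.5 CPM in bap Dam-PolII, compared with 241, 191 and 209 in bap Alk.DN (log2 fold change 1.65 ± 0.16 SE, adjusted p = 3.9e-07). The largest fold among the 6 named was that of CG11155 (FBgn0039927, chr4:1126602-1137919), which rose from 17.6, 7.95 and 8.78 to 112, 83.5 and 93.5 CPM (log2 fold change 2.56 ± 0.30 SE, adjusted p = 3.3e-06). By the rule of choice, the groups did not overlap in either gene. The translation initiation factor eIF4G1 had 42.3, 25.6 and 30.4 CPM and 127, 162 and 164 (log2 fold change 1.68 ± 0.21 SE, adjusted p = 7.6e-06). The Pax gene toy, an eye selector, had 50.3, 47.4 and 41.6 CPM and 169, 147 and 186 (log2 fold change 1.32 ± 0.17 SE, adjusted p = 1e-05). CG32006 rose from 28.3, 19.1 and 21.8 to 94.7, 99.6 and 114 CPM (log2 fold change 1.63 ± 0.22 SE, adjusted p = 1.4e-05), and its intronic site printed above went from 13.6, 9.89 and 10.7 to 48.0, 46.8 and 50.1 CPM (log2 fold change 1.70 ± 0.24 SE, adjusted p = 0.0002 over all sites). By the same rule, in none of these did a library of one group reach the other group. The calcium pump gene PMCA had 90.9, 76.8 and 59.4 CPM and 254, 262 and 244 (log2 fold change 1.22 ± 0.16 SE, adjusted p = 1.6e-05).

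Among the called genes, the libraries of the groups overlapped in CPM for Pur-alpha, Zyx, CR43361, myo, CG33941, gw, bt and unc-13, all of them lower genes. Their lower calls rest on the TMM scaling. For bt, for example, the libraries had 710.4, 576 and 593 CPM in bap Dam-PolII, compared with 668, 619.9 and 671 in bap Alk.DN, and a log2 fold change of −0.47 ± 0.10 (SE; adjusted p = 0.0014) with TMM became 0.14 under total counts. gw turned from −0.49 to 0.12 and unc-13 from −0.37 to 0.24 in the same way. The share of such overlaps over all called genes is not given, so they are not called particular to chromosome 4.

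Under twi2xPE-GAL4, 45 of the 103 chromosome 4 genes tested (43.7%) differed between the Alk.DN and the Dam-PolII libraries, 30 higher and 15 lower in Alk.DN, where 29.1% of all 14499 genes were called, 10.5% higher and 18.7% lower. The median log2 fold change was 0.43 on chromosome 4 and 0.15 over all genes. Under total counts 69 genes were called, 62 higher and 7 lower, where 39.1% of all genes were called, 29.8% higher and 9.32% lower, with a median of 0.77. All 30 higher genes and 7 of the 15 lower ones (CG46466, apolpp, bt, ci, gw, mav and pan) kept their call. Without twi Alk.DN replicate 3, 29 genes were called, and without replicate 1 of that group, 30. Over all genes, 2754 and 3007 were then called, beside 4226 with every library. Of the 45 genes, 26 kept call and direction without any single library, 18 higher and 8 lower. The others were the higher genes CR32010, CR33797, Gat, Gyf, Hcf, PMCA, Rnf11, Syt7, Taf3, Tdg, eIF4G1 and toy and the lower genes CG33941, RpS3A, Zyx, asRNA:CR44029, asRNA:CR44031, asRNA:CR45124 and lncRNA:CR44440.

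The gene apolpp again had the smallest adjusted p, with 205, 229 and 239 CPM in twi Dam-PolII, compared with 109, 103 and 109 in twi Alk.DN (log2 fold change −1.65 ± 0.09 SE, adjusted p = 6.2e-08). pan fell from 1469.5, 1349 and 1253 to 1052, 957 and 1028 CPM (log2 fold change −1.002 ± 0.08 SE, adjusted p = 8.5e-07) and ci from 376, 348 and 285 to 198, 201 and 206 (log2 fold change −1.32 ± 0.11 SE, adjusted p = 1.5e-06). Neither overlapped. CG46466 had 277, 260.0 and 241 CPM and 170.4, 151 and 171 with Alk.DN (log2 fold change −1.24 ± 0.10 SE, adjusted p = 1.1e-06). The muscle gene bt (FBgn0005666, chr4:724400-776474), whose product Bent is a projectin of the sarcomere, had 780.4, 680.2 and 694 CPM and 583, 535 and 539.9 (log2 fold change −0.96 ± 0.08 SE, adjusted p = 1.4e-06). Here, unlike under bap, the libraries of bt did not overlap and the call held with total counts. gw, a component of microRNA silencing, fell from 336, 351 and 325 to 269, 242 and 269.8 CPM (log2 fold change −0.95 ± 0.09 SE, adjusted p = 3.2e-06).

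Of the higher genes, CG32006 had the smallest adjusted p under twi, with 33.5, 29.1 and 31.5 CPM in twi Dam-PolII, compared with 148, 145 and 148 in twi Alk.DN (log2 fold change 1.65 ± 0.12 SE, adjusted p = 5e-07). Its printed site followed, from 13.5, 11.97 and 14.6 to 67.8, 69.4 and 68.5 CPM (log2 fold change 1.84 ± 0.15 SE, adjusted p = 1.8e-05). Mitf (FBgn0263112, chr4:1198852-1224467), a factor that controls lysosomal genes, rose from 62.2, 70.9 and 61.2 to 212, 224 and 227 CPM (log2 fold change 1.19 ± 0.11 SE, adjusted p = 2.9e-06), and its printed exonic site from 16.8, 18.1 and 19.4 to 77.9, 73.7 and 74.9 (log2 fold change 1.54 ± 0.14 SE, adjusted p = 3.6e-05). The 3 Alk.DN libraries lay close together in both genes. CG33978 had 52.0, 56.7 and 61.9 CPM and 171, 184 and 197 (log2 fold change 1.11 ± 0.11 SE, adjusted p = 7.9e-06). The Pax gene ey (FBgn0005558, chr4:697689-721173), which directs eye development, had 79.1, 77.2 and 95.5 CPM and 240.3, 248 and 262 (log2 fold change 0.998 ± 0.10 SE, adjusted p = 1e-05). CG32017 had 44.4, 59.0 and 55.4 CPM and 185, 170.4 and 169 (log2 fold change 1.14 ± 0.13 SE, adjusted p = 2e-05). Each of these groups was again separate, as the choice of named genes required. The kainate-type glutamate receptor gene Ekar rose from 13.4, 11.5 and 12.7 to 53.6, 58.1 and 53.4 CPM (log2 fold change 1.56 ± 0.18 SE, adjusted p = 2.3e-05). Among the called genes the libraries overlapped for RpS3A, myo, Zyx and CG33941. No share over all called genes is set beside this, so nothing in it is called particular to chromosome 4.

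**Figure D3:**
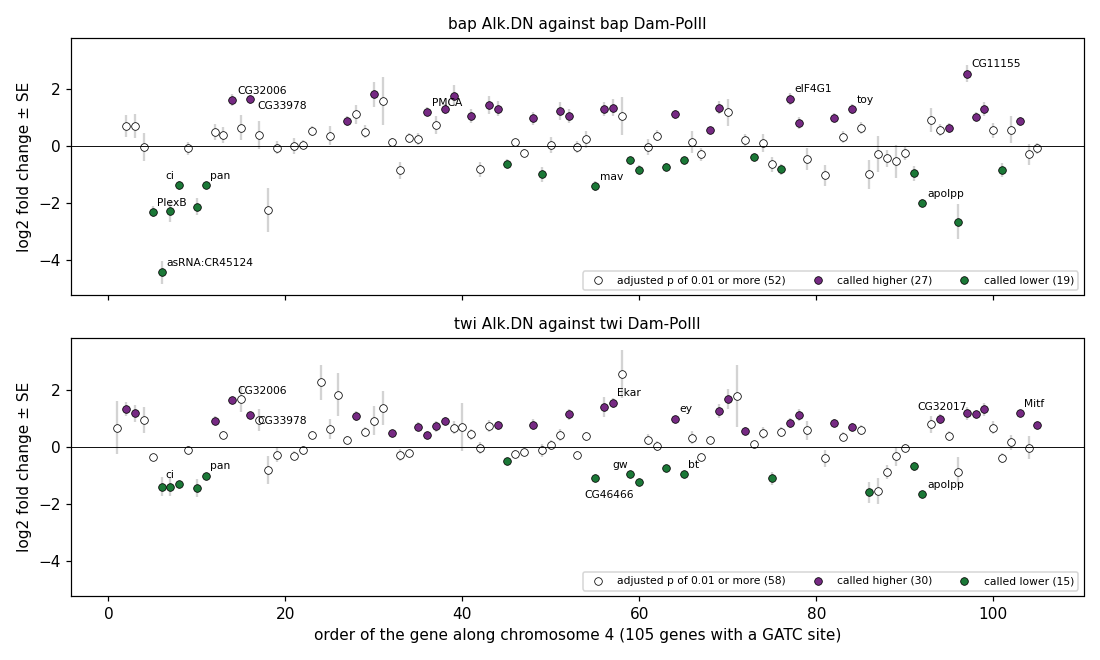
Log2 fold change of each tested chromosome 4 gene with Alk.DN (coloured points: adjusted p under 0.01, bars: SE), in the order of the genes along the chromosome, for both drivers. Higher and lower genes are interspersed along the chromosome, with apolpp, pan and ci low and CG33978 and CG32006 high for both drivers.

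**Figure D4:**
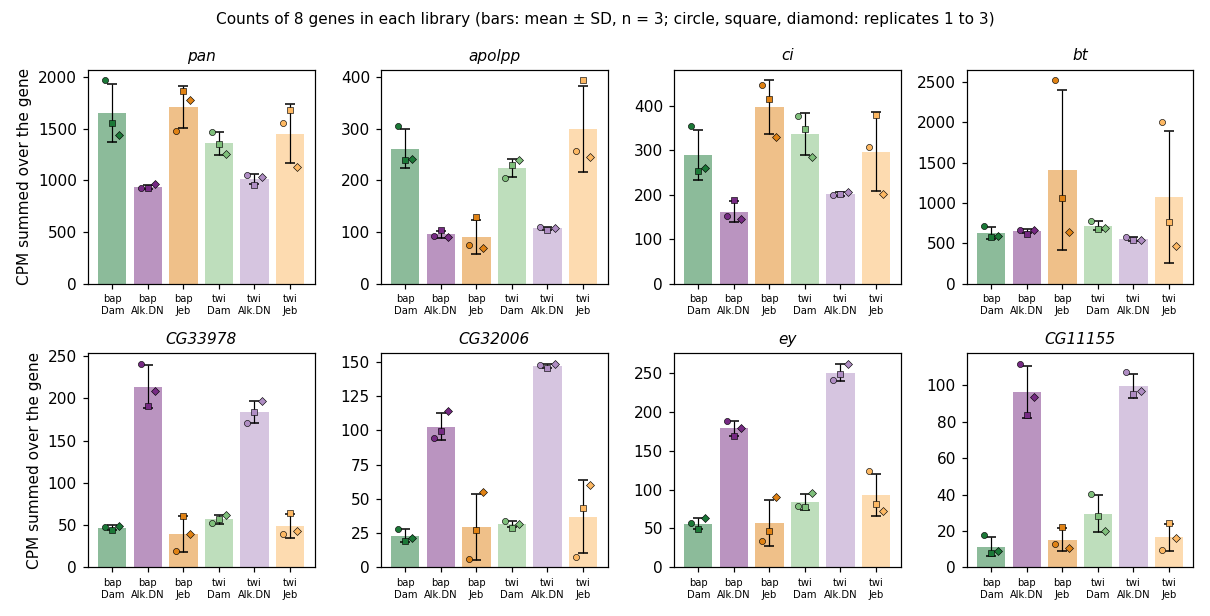
CPM summed over each of 8 chromosome 4 genes in the 18 libraries (points, shaped by replicate) with the mean ± SD of each group (bars, n = 3). apolpp, pan and ci are lower and CG33978, CG32006, ey and CG11155 higher with Alk.DN under both drivers, and bt is far higher in replicate 1 of each Jeb group (2526 and 2003 CPM) than in the other libraries.

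Between the drivers, 32 genes were called in both comparisons, which is 69.6% of the calls under bap and 71.1% of those under twi. They comprised 19 genes higher in both, 13 lower in both and 0 in opposite directions. Over all genes the shares were 55.9% and 63.2%, with 96.2% in the same direction. The comparisons have no library in common. The 19 higher genes included the regulators ey, toy, dati, fuss, fd102C and Mitf, the glutamate receptors Ekar and mGluR, the GABA transporter Gat, the motor protein gene Kif3C, and Taf3, Tdg and eIF4G1. The 13 lower genes included ci, pan, mav, myo, RpS3A, bt, Zyx, gw and apolpp, of which Zyx and apolpp overlap and share sites. Of the lower genes named, myo, bt, Zyx and gw did not hold under total counts for bap, and myo, Zyx and RpS3A did not for twi.

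The direction of a gene went with its level. Splitting the genes tested under bap at their median of 2.25 CPM per site over the libraries compared, the 49 in the upper part had 10 higher and 18 lower calls and a median log2 fold change of −0.27, whereas the 49 in the lower part had 17 higher and 1 lower and a median of 0.64. Under twi the 51 upper genes had 9 higher and 15 lower calls (median −0.20) and the 52 lower genes 21 and 0 (median 0.71). The same held over all genes, whose medians were −0.39 and 0.74 under bap and −0.34 and 0.66 under twi. Under bap their upper part had 667 higher and 2247 lower calls and their lower part 1418 and 252. Under twi these were 543 and 2505, and 976 and 202. Of the biotypes, protein-coding genes had 25 higher and 16 lower calls of 79 under bap and 27 and 11 of 80 under twi. Non-coding RNA genes had 2 and 2 of 13, and 0 and 4 of 16. Pseudogenes had 0 and 1 of 6, and 3 and 0 of 7. Over all genes 16.5% were higher and 19.8% lower under bap, and 10.5% and 18.7% under twi. Genome shares by biotype are not given, so nothing is called particular to a biotype.

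The counts of the following lists stand beside the shares over all genes, 16.5% higher and 19.8% lower under bap and 10.5% and 18.7% under twi, and nothing is called particular to a list. Of the 15 listed DNA-binding and other nuclear regulators, 8 were higher under bap (NfI, dati, lgs, ey, Sox102F, fuss, toy and Mitf) and 2 lower (ci and pan), with a median of 0.76 beside 0.13 over all genes. Under twi 7 were higher (Hcf, dati, ey, fuss, toy, sv and Mitf) and the same ci and pan lower, with a median of 0.70 beside 0.15. The Polycomb group DNA-binding factor pho and the homeobox genes zfh2 and onecut passed the threshold under neither driver. ci and pan, effectors of the Hedgehog and Wnt pathways, had the highest CPM per site of the list in bap Dam-PolII (9.98 and 16.1), whereas lgs, a cofactor of Wnt signalling, was higher under bap (log2 fold change 1.07 ± 0.25 SE, adjusted p = 0.0025). The Pax genes ey and toy had 1.13 and 1.32 under bap and 0.998 and 0.70 under twi. The remaining Pax gene, sv, had 0.98 ± 0.16 (SE; adjusted p = 0.0005) under twi and 0.58 ± 0.22 (SE; adjusted p = 0.039) under bap, which missed the threshold.

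Beside the same shares over all genes (16.5% and 19.8% under bap, 10.5% and 18.7% under twi), among 8 ligands, receptors and adaptors, the ligands mav and myo were lower under both drivers and the receptor PlexB under bap, while Ephrin, a ligand of Eph receptors, was higher under bap (log2 fold change 1.25 ± 0.31 SE, adjusted p = 0.0038). The list's median was 0.15 under bap and 0.13 under twi. The activin ligand Actbeta, the receptors Eph and PlexA and the adaptor Crk were not called. Myoglianin, the product of myo, is a TGF-beta ligand of muscle and glia. The log2 fold change of myo was −0.72 ± 0.15 (SE; adjusted p = 0.0011) under bap and −0.73 ± 0.11 (SE; adjusted p = 0.00027) under twi, and the libraries of its groups overlapped under each driver.

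Of 7 genes of synapses and neurons, Ekar and mGluR were higher and unc-13 was lower under bap (median 0.16). Under twi 5 were higher, Ank, Syt7, Ekar, mGluR and Cadps, and 0 lower (median 0.78). Over all genes 16.5% were higher and 19.8% lower under bap and 10.5% and 18.7% under twi. The bap call of mGluR was lost without bap Dam-PolII replicate 2 or 3 or bap Alk.DN replicate 1 or 2 (0.64 to 0.80), and with the best region of the gene (1.65). That of unc-13 was lost without bap Dam-PolII replicate 3 or bap Alk.DN replicate 1 or 2 (−0.33 to −0.39) and without the sites in transposable elements (−0.25), and its direction turned with total counts (0.24). Cadps, which acts in release from dense-core vesicles, had 99.1, 104 and 83.9 CPM in twi Dam-PolII, compared with 238, 244 and 253 in twi Alk.DN (log2 fold change 0.78 ± 0.11 SE, adjusted p = 0.00012). Of the neuronal markers, brp was low and elav was not, as given above.

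Of 14 matched housekeeping genes, set beside the same shares over all genes, 3 were higher under bap (Taf3, Tdg and eIF4G1) and 4 lower (RpS3A, Pur-alpha, gw and Arf4), with a median of −0.15. Under twi 4 were higher (Taf3, Tdg, Gyf and eIF4G1) and 2 lower (RpS3A and gw), with a median of −0.17. RpS3A, a ribosomal protein gene, went from 30.2, 43.6 and 33.5 CPM to 9.26, 13.3 and 13.2 under bap (log2 fold change −2.11 ± 0.29 SE, adjusted p = 2.3e-05). Under twi its libraries overlapped, with 17.0, 42.1 and 36.0 and 15.3, 15.0 and 21.9 CPM (log2 fold change −1.45 ± 0.31 SE, adjusted p = 0.003), and the call was lost without twi Dam-PolII replicate 2 (−1.18) or without replicate 1 or 2 of twi Alk.DN (−1.34 and −1.31). The twi call of RpS3A was also lost with total counts (−0.82) and with the best region of the gene (−1.68). ATPsynbeta and Rad23 were not called. Of the muscle and cytoskeleton list, beside these shares, bt and Zyx, which encodes the adhesion protein Zyxin, were lower under both drivers (medians −0.71 and −0.82), and under bap the libraries overlapped for both. The call of Zyx was lost without bap Dam-PolII replicate 1 (−0.73) or bap Alk.DN replicate 2 (−0.87), and under twi without any of the Alk.DN libraries (−0.62 to −0.72). Without the sites in transposable elements it was lost under both drivers (−0.63 and −0.40). The strongest site of Zyx, at chr4:1062117, lies inside apolpp, so the calls of these genes are not independent.

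At single sites, 168 of 977 tested chromosome 4 sites were called under bap (17.2%, 103 higher and 65 lower), where 20.4% of 71052 sites were called in all, 8.16% higher and 12.3% lower. Under twi it was 135 of 1697 (7.96%, 75 higher and 60 lower), where 11.1% of 116694 were called, 2.67% higher and 8.43% lower. The split turned with the setting. With total counts 185 were higher and 43 lower under bap, where 21.5% of all sites were called, 13.3% higher and 8.27% lower. Under twi it was then 219 and 24, where 12.3% of all sites were called, 7.6% higher and 4.7% lower. With TMM scaling but without bap Alk.DN replicate 1 it was 47 and 59, and without twi Alk.DN replicate 1 it was 17 and 33. For all sites these splits were 2679 and 7366, and 537 and 6441. The called sites differed by position. Within 250 bp of a start, 5 were higher and 23 lower of 97 tested under bap, and 1 and 25 of 118 under twi. Beyond 5000 bp, 47 were higher and 8 lower of 319 under bap, and 34 and 7 of 636 under twi. The counts leaned on single libraries: leaving out bap Dam-PolII replicate 1, 2 or 3 left 78, 76 and 85 called sites, and leaving out bap Alk.DN replicate 1 or 2 left 106 and 91. Leaving out twi Alk.DN replicate 1, 2 or 3 left 50, 36 and 38. Of all sites, the same steps left 8370, 8065 and 8332, then 10045 and 9550, and under twi 6978, 5725 and 5684. With every library 14528 and 12953 of all sites were called. Over all sites of the genome, 693 were higher and 2522 lower of 10625 close to starts under bap, and 1726 and 1005 of 16061 beyond 5000 bp. Under twi 440 were higher and 2969 lower of 14357 close to starts, and 909 and 1000 of 29763 beyond 5000 bp. In genes, 137 of 788 chromosome 4 sites were called under bap (17.4%, all sites 20.1%) and in intergenic sequence 31 of 189 (16.4%, all sites 21.9%). Under twi it was 98 of 1366 in genes (7.17%, all sites 11.6%) and 37 of 331 in intergenic sequence (11.2%, all sites 9.55%). In transposable elements 18 sites were higher and 15 lower of 222 tested under bap, where over the genome 347 were higher and 124 lower of 3065. Under twi it was 23 and 2 of 437, where over the genome it was 137 and 291 of 6378.

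The promoters of chromosome 4 genes were compared with all promoters for the letters GATC, since a gene without a site near its start is read from further away. Promoters of protein-coding genes, taken from 250 bases before to 50 after the annotated gene start, contained GATC in 34 of 80 genes of chromosome 4 (42.5%) and in 45.2% of all 13968. Of the 19 genes higher in both comparisons 5 contained it (26.3%), and of the 11 protein-coding genes lower in both 6 did (54.5%). TATAAA was found on either strand in 37.5% of chromosome 4 promoters and 45.8% of all, and TATCGATA, an insulator and promoter element, in 8.75% and 9.36%. None of these motifs contains another, and a match is a description of the sequence only.

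The difference between the drivers was tested directly as an interaction over the 12 libraries labelled Dam-PolII and Alk.DN. Of 103 chromosome 4 genes 6 passed (5.83%), where 9.76% of 14962 genes did. They were PlexB, asRNA:CR45124, CR43361, unc-13, Cadps and pan, each with a more positive response under twi. Under total counts PlexB, asRNA:CR45124 and CR43361 kept the call. PlexB fell under bap, as given, but had 83.4, 68.5 and 69.7 CPM in twi Dam-PolII, compared with 86.6, 88.1 and 84.0 in twi Alk.DN (log2 fold change −0.35 ± 0.12 SE, adjusted p = 0.037), and the responses differed by 2.12 ± 0.23 (SE; adjusted p = 9.6e-07) on the log2 scale. With total counts its twi fold change was 0.27, in the direction of the CPM values. Its level in the Dam-PolII libraries was lower under twi than under bap.

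Much of the difference in PlexB lay close to its start, but its other sites differed as well. The 4 sites within 1500 bp of it summed to 173, 159 and 129 CPM in bap Dam-PolII, compared with 5.29, 10.3 and 16.1 in bap Alk.DN, and to 28.9, 33.4 and 23.0 in twi Dam-PolII, compared with 19.0, 15.8 and 19.7 in twi Alk.DN. The other 36 sites summed to 70.9 ± 9.07 and 55.4 ± 11.6 CPM under bap and 45.4 ± 9.75 and 68.1 ± 4.07 under twi. Of the bap groups, the sums at the start did not overlap, whereas those of the other sites did. Of the twi groups neither sum overlapped, and they moved in opposite directions. At the other sites the twi libraries had 35.1 to 54.5 CPM with Dam-PolII alone and, higher, 64.3 to 72.4 with Alk.DN. The site of PlexB whose sequence is given above had 40.8, 36.6 and 22.8 CPM in bap Jeb. Under twi it had 9.91, 16.7 and 10.6 CPM with Dam-PolII alone, 6.52, 6.51 and 8.23 with Alk.DN and 2.26, 7.75 and 11.1 with Jeb. Its high values were thus those of bap Dam-PolII and bap Jeb.

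**Figure D5:**
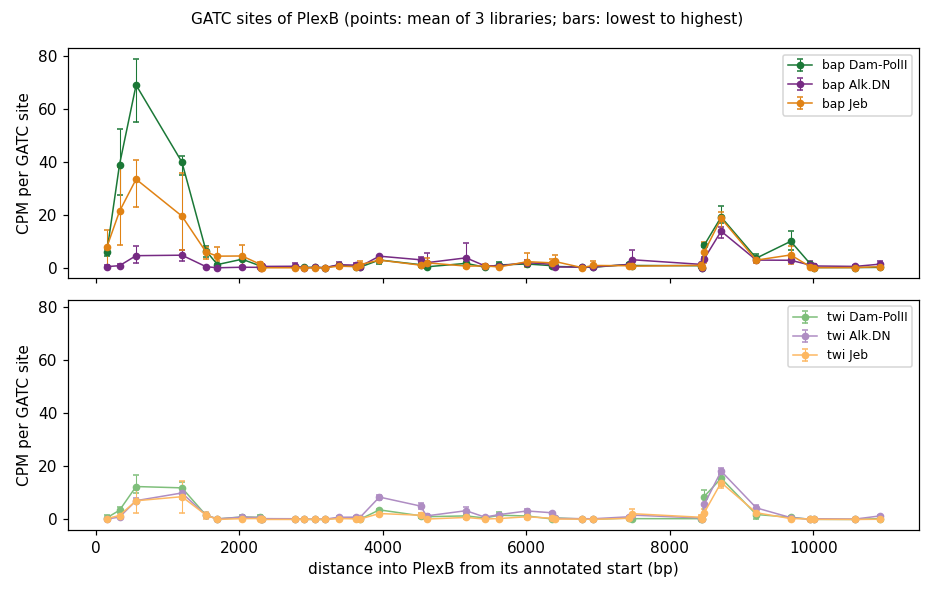
CPM of each GATC site of PlexB against its distance from the annotated start, for bap (top) and twi (bottom), as the mean of 3 libraries with bars from the lowest to the highest. The sum of the 4 sites within 1500 bp is highest in bap Dam-PolII, at 129 to 173 CPM.

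CR43361 is a pseudogene inside unc-13, and the reads of both overlap. It had 77.8, 63.4 and 80.0 CPM in bap Dam-PolII, compared with 66.9, 46.5 and 67.9 in bap Alk.DN. Under twi it had 21.3, 29.9 and 24.4 CPM in twi Dam-PolII, compared with 59.4, 55.3 and 49.2 in twi Alk.DN, and the responses differed by 1.52 ± 0.28 (SE; adjusted p = 0.00041). The libraries overlapped under bap and were separate under twi. unc-13, required for priming synaptic vesicles, had 405, 379 and 428 CPM in bap Dam-PolII, compared with 448, 418 and 487 in bap Alk.DN, groups that overlap. In twi, unc-13 had 286, 243 and 254 CPM with Dam-PolII alone and, without overlap, 419, 407 and 422 with Alk.DN. Its responses differed by 0.64 ± 0.14 (SE; adjusted p = 0.0019), while its response was −0.37 ± 0.11 (SE; adjusted p = 0.009) under bap and 0.10 ± 0.08 (SE; adjusted p = 0.37) under twi. For Cadps the difference was 1.02 ± 0.23 (SE; adjusted p = 0.0031), and for pan, which was lower under both drivers, 0.52 ± 0.13 (SE; adjusted p = 0.0081). The call of Cadps was lost without replicate 1 or 2 of bap Dam-PolII, any replicate of twi Dam-PolII or replicate 3 of twi Alk.DN (0.67 to 0.99). That of unc-13 was lost without replicate 1 or 3 of bap Dam-PolII or replicate 2 or 3 of twi Dam-PolII (0.47 to 0.52), and that of pan without any library but bap Alk.DN replicate 3 and twi Alk.DN replicate 2 (0.26 to 0.52). Without the sites in transposable elements, an alternative chosen after seeing the data, 4 of the genes passed, and Cadps and unc-13 (0.39, adjusted p = 0.088 by edgeR) were no longer among them.

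With Jeb, 0 chromosome 4 genes passed under bap, where 0% of 11440 genes did by edgeR's quasi-likelihood test, with 11 of 98 at an unadjusted p under 0.05 and 2 by DESeq2, where 1.57% of all genes passed by DESeq2. Under twi 0 passed, where 0% of 12599 genes did, with 10 of 99 at an unadjusted p under 0.05 and 0 by DESeq2, where 0.183% of all genes passed by DESeq2. Each Jeb group contains the replicate 1 library that stood apart. Without it, 2 of 99 genes passed under bap, where 1.73% of 12078 genes did, and 0 of 100 under twi, where 0.757% of 13082 did.

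The pair that passed under bap without Jeb replicate 1 were lncRNA:sphinx and fuss, which overlap each other. lncRNA:sphinx, a young non-coding gene of the melanogaster lineage derived in part from an ATP synthase gene, had 33.1, 33.2 and 39.3 CPM in bap Dam-PolII and 247, 159.8 and 392 in bap Jeb, and 25.1, 28.7 and 29.7 in twi Dam-PolII and 104, 48.4 and 72.5 in twi Jeb. All 3 bap Jeb libraries, replicate 1 included, lay above every bap Dam-PolII library. Without replicate 1 the log2 fold change was 2.95 ± 0.31 (SE; adjusted p = 0.00049) under bap and 1.25 ± 0.26 (SE; adjusted p = 0.021) under twi. fuss, whose product is a corepressor of the Ski and Sno family, had 55.1, 62.3 and 62.2 CPM in bap Dam-PolII, 277, 190.2 and 436 in bap Jeb, 52.0, 63.8 and 58.2 in twi Dam-PolII and 149, 96.0 and 106 in twi Jeb, with 2.37 ± 0.28 (SE; adjusted p = 0.00088) under bap and 0.94 ± 0.21 (SE; adjusted p = 0.032) under twi without replicate 1. Much of this lay at the shared site printed above, which had 25.6, 24.9 and 30.2 CPM in bap Dam-PolII, 210.0, 154 and 382 in bap Jeb, 19.8, 20.1 and 23.3 in twi Dam-PolII and 49.4, 36.4 and 52.0 in twi Jeb. As some stretches around that site occur elsewhere in the genome, reads there may come from another copy, which was not tested.

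For the genes that moved with Alk.DN, the Jeb libraries gave no common order. apolpp had 75.1, 129 and 68.3 CPM in bap Jeb, below every bap Dam-PolII library, but 257, 394 and 245 in twi Jeb, above every twi Dam-PolII library. ci had 447, 416 and 331 CPM in bap Jeb and 308, 379.8 and 203 in twi Jeb. pan had 1479.8, 1866 and 1778 CPM in bap Jeb and 1549, 1674 and 1132 in twi Jeb. The Jeb libraries of ci and pan overlapped those labelled Dam-PolII under both drivers. CG33978 had 19.0, 60.5 and 39.4 CPM in bap Jeb and 39.5, 64.7 and 42.6 in twi Jeb, and CG32006 had 6.41, 27.2 and 54.8 CPM and 7.80, 43.5 and 60.1. Replicate 1 was the lowest in each of these groups. None of these 5 genes passed the threshold with Jeb, with or without replicate 1.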

How the data were processed

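The count table was deposited by the authors and gives, for each GATC site and library, the raw count of reads, with no normalization. Per the labels and the study's methods, reads were mapped with Bowtie2 in a very sensitive local mode, and CASAVA and limma are also named in the submitters' processing notes. Reads were paired-end, from PCR products and without molecular identifiers. The deposited peak files hold the authors' own comparisons and were not used. Columns of no listed sample numbered 0. Counts were summed over the sites inside each gene of Ensembl release 115. Fits used edgeR 4.0.16 in R 4.3.3 (quasi-likelihood F-test, two-sided, filterByExpr with a minimum count of 10, TMM scaling) over all genes or sites, only on the 6 libraries compared (12 for the interaction), and features were called at a Benjamini-Hochberg adjusted p under 0.01. Shares and class means carry no test. Sites were classed by the same annotation and by distances of 250, 1000 and 5000 bp to the nearest start, and the scale for means of logs was log2(CPM + 1). limma-voom (limma 3.58.1), DESeq2 1.42.0, total-count scaling, no filter, a replicate block, the best region of a gene, one fit to all libraries and leaving out each library were the alternatives. Named genes were, for each Alk.DN comparison, the 6 higher and 6 lower with the smallest adjusted p and no overlap between groups, plus the listed genes. lncRNA:sphinx and the interaction genes were named for their calls. The chromosome and the gene lists were chosen with earlier results of these data known. Of the housekeeping list, 14 of 15 symbols matched the annotation. The code was tested on simulated data, and no libraries were duplicates of each other.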

Additional observations from a re-analysis of the deposited data

Results flagged for a closer look

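The 6 chromosome 4 genes whose response to Alk.DN differed between the drivers, by the interaction term of edgeR's quasi-likelihood test with Benjamini-Hochberg adjustment, are listed here for a closer look, each as the twi response minus the bap response on the log2 scale. PlexB differed by 2.12 ± 0.23 (SE; adjusted p = 9.6e-07) and its antisense neighbour asRNA:CR45124 by 3.22 ± 0.50 (SE; adjusted p = 7.2e-05), and since the single site of the latter also lies in PlexB they are not independent. The pseudogene CR43361, which lies in unc-13, differed by 1.52 ± 0.28 (SE; adjusted p = 0.00041), and unc-13 itself by 0.64 ± 0.14 (SE; adjusted p = 0.0019). Cadps differed by 1.02 ± 0.23 (SE; adjusted p = 0.0031) and pan by 0.52 ± 0.13 (SE; adjusted p = 0.0081). Each comparison involves the libraries labelled bap Dam-PolII, whose jeb level goes against their label, and the part of that in these differences was not tested. Around the strongest site of CR43361, 3 of 20 stretches of 30 bases occurred elsewhere in the genome.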

How the results depend on the processing

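The number of called genes on chromosome 4 changed most when one model was fitted to all libraries, whose shared spread then includes the Jeb libraries. It fell to 10 under bap Alk.DN and to 1 under twi Alk.DN, the called sites fell to 13 and 0, and bap Jeb gave 2. The calls over all genes fell as well, from 4584 to 1606 under bap Alk.DN and from 4226 to 569 under twi Alk.DN, and bap Jeb gave 107. Those over all sites fell from 14528 to 1545 and from 12953 to 335. Total counts gave 69 genes and 243 sites under twi, beside 5676 genes and 14357 sites in all. No filter gave 266 sites under twi, and DESeq2 gave 275 sites under bap, 263 under twi and 2 genes with bap Jeb. In all, these were 19602, 19344 and 19997 sites and 180 genes. Leaving out each library gave 35 to 43 genes under bap Alk.DN, 29 to 44 under twi Alk.DN, 0 to 2 with bap Jeb, 0 to 0 with twi Jeb, 4 to 7 for the interaction, and 76 to 122 and 36 to 160 sites. Over all genes it gave, in this order, 3653 to 4283, 2754 to 4587, 0 to 209, 0 to 99 and 1099 to 1428. For all sites it gave 8065 to 12143 under bap and 5684 to 14501 under twi. Of the called genes, directions turned with total counts for bt (0.14), gw (0.12) and unc-13 (0.24) under bap and CG33941 (0.13) under twi. Of the genes given values but not called, they turned for Cadps under bap with total counts (0.55), limma-voom (0.00793), without transposable element sites (0.21), without bap Dam-PolII replicate 1 (0.12, within a range of −0.31 to 0.12 without single libraries) and with the best region (2.54), for PlexB under twi with total counts (0.27), and for unc-13 under twi without transposable element sites (−0.044) and with the best region (−1.53). The cause was not tested.

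Without the 10 strongest sites the share of chromosome 4 was 0.639% in bap Dam-PolII, 0.974% in bap Alk.DN, 0.739% in bap Jeb, 0.678% in twi Dam-PolII, 1.15% in twi Alk.DN and 0.737% in twi Jeb, and over sites on 2L, 2R, 3L, 3R, X, Y and 4 it was 1.33% in twi Alk.DN. Without single libraries the shares in this order were 0.866% to 0.966%, 1.15% to 1.18%, 1.05% to 1.41%, 0.932% to 0.965%, 1.29% to 1.31% and 0.974% to 1.37%. Genic minus intergenic was, with a pseudocount of 0.1 CPM, 0.326, 0.125, 0.117, 0.143 and 0.0951 (without twi Alk.DN, which moved by less than its SD), and over sites counted in every library 0.0573, −0.0278, −0.0190, −0.0302, −0.172 and −0.147. Without single libraries it was 0.101 to 0.106, 0.049 to 0.079, 0.034 to 0.078, 0.057 to 0.061, −0.014 to 0.0068 and 0.014 to 0.041.

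Replicate numbers did not pair libraries in the pairs of groups checked: deviations of same-numbered libraries from their group means correlated at −0.02 to 0.02. The pair of bap Jeb and twi Jeb was not among those checked. Their replicate 1 libraries stood apart together, with r of 0.84 between them over chromosome 4 sites. A fit with a replicate block called 45 genes under bap, 41 under twi, 129 and 94 sites, 7 genes for the interaction and 0 with Jeb. In all, that fit called 4253 and 3824 genes, 11440 and 9397 sites, 1445 genes for the interaction and 0 with Jeb. Leaving out transposable element sites, chosen after seeing the data, gave 46 and 40 genes, beside 4594 and 4211 genes in all. Depth limits the weak sites, since 3 counts are up to 1.85 CPM, and the spread of the Jeb groups limits their tests.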
